A study of Homo sapiens with 4 samples.

Results

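The new MBD-seq peaks at 10 genes of glycolytic enzymes were examined, namely HK1, HK2, GPI, PFKL, ALDOA, TPI1, GAPDH, PGAM1, ENO1 and PKM. The genes were selected by function, with earlier results of these data known. A peak was assigned to a gene when it overlapped any base of its gene body. Overlap with the 1000 bp on either side of any of its start sites in GENCODE release 44 lifted to hg19 also counted. In total, 12 of the 12864 new peaks of the library belonged to these 10 genes out of 19881 coding genes.

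MBD-seq uses MBD2, a protein that binds methylated CpGs, to collect methylated fragments of sonicated DNA for sequencing. A pulldown from a pool of cells does not separate a few methylated CpGs in many cells from many in a few cells. HEK293 cells, a human embryonic kidney line, were used in 4 conditions with 1 library each. The wild type cells had transiently received dCas9-SunTag, the scFv antibody fused to the C-terminal domains of the methyltransferase DNMT3A and its stimulator DNMT3L (Ab-3A3L), and an sgRNA against the CpG island (CGI) of ISG15, and cells that carried every plasmid were sorted 3 days later. K844E and R887E cells had the same components with a DNMT3A mutation, and untreated cells had none. None of the 10 genes is the target of this sgRNA. The values below come from the list of peaks that the wild type library gained over untreated cells, and the other 3 libraries were not analysed here. The cell line cannot be checked against expression markers in a DNA pulldown, and with 1 library per condition no value can be set against the spread between replicates.

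Glycolysis splits glucose into pyruvate in the cytosol and yields ATP and NADH on the way. Most steps can be carried out by several isozymes, of which some are made in nearly all cells and others in liver, muscle or testis. The broadly used genes start in CGIs, stretches rich in CpG that are usually free of methylation in normal cells, and several of them are known targets of the hypoxia factor HIF1.

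The sequence at the summit of a peak, where most fragments overlapped, is shown to give an impression of the DNA that was pulled down. Each window covers 120 bp of hg19 in the direction of the gene, as near to the summit as possible without untranslated exons, with every CpG in capitals. All windows that contained the summit are given, which leaves out GAPDH, the main peak of GPI and the PKM peak at the start site. The GPI window is therefore that of its upstream peak, and the PKM window that of its peak in intron 1. The windows of HK2, PFKL, ALDOA, TPI1 and PGAM1 have the summit at base 61, that of HK1 at base 13, that of GPI at base 101, that of ENO1 at base 83 and that of PKM at base 60.
HK1, chr10:71077992-71078111 (plus strand): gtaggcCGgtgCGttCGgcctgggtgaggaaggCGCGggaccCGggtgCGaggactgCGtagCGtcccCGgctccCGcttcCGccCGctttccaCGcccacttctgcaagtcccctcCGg
HK2, chr2:75061950-75062069 (plus strand): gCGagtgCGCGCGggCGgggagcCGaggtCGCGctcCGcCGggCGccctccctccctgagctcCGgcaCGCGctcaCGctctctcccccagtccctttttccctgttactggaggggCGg
GPI, chr19:34850265-34850384 (plus strand): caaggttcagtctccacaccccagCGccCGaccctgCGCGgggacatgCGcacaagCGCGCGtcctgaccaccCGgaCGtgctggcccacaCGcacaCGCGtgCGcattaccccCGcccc
PFKL, chr21:45720281-45720400 (plus strand): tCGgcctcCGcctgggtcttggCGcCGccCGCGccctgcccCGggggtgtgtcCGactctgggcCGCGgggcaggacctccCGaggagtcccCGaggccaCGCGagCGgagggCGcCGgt
ALDOA, chr16:30076371-30076490 (plus strand): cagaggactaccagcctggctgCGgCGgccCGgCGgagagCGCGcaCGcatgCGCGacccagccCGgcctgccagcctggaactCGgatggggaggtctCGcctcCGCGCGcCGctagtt
TPI1, chr12:6977084-6977203 (plus strand): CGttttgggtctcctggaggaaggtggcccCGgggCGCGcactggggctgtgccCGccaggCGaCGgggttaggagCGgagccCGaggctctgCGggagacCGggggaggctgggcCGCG
PGAM1, chr10:99186078-99186197 (plus strand): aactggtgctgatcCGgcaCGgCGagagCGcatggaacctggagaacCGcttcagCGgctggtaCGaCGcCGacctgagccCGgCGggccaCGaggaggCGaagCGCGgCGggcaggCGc
ENO1, chr1:8939250-8939369 (minus strand): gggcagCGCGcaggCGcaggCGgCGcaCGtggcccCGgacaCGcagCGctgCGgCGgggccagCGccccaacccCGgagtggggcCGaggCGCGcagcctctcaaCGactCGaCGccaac
PKM, chr15:72522571-72522690 (minus strand): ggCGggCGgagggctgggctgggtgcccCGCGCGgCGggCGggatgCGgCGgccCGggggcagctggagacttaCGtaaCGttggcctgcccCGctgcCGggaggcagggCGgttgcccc
The windows held from 13 CpGs in TPI1 to 19 in ENO1, with 15 in HK1, GPI and PKM, 16 in HK2 and ALDOA and 17 in PFKL and PGAM1.

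All 10 genes had a new peak, and 8 of them had a single peak. The share over all coding genes by the same rule was 48.5%. GPI and PKM had 2 peaks each, and 12.1% of all coding genes had 2 or more. Since a long gene can collect peaks in its body, the canonical start site was also used alone. A new peak lay within 1000 bp of it in 10 of 10 genes, against 42.1% of all coding genes. In all 10 genes the canonical start site itself lay inside a new peak, and this was so for 27.1% of all coding genes.

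The start site of each of these genes lies in a CGI, and CGI promoters carried new peaks more often than others. Of all coding genes with a CGI within 1000 bp of the canonical start site, 57.7% had a new peak within that distance and 37.2% had the start site inside a peak. When only genes with 96 to 194 CpGs in this CGI were taken, which is the range of the 10 genes, the shares were 74.0% and 48.8%. These counts are descriptions of 1 library, for genes that were chosen with earlier results of these data known. No further peak was added when the distance was extended to 2000 bp.

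**Figure D1:**
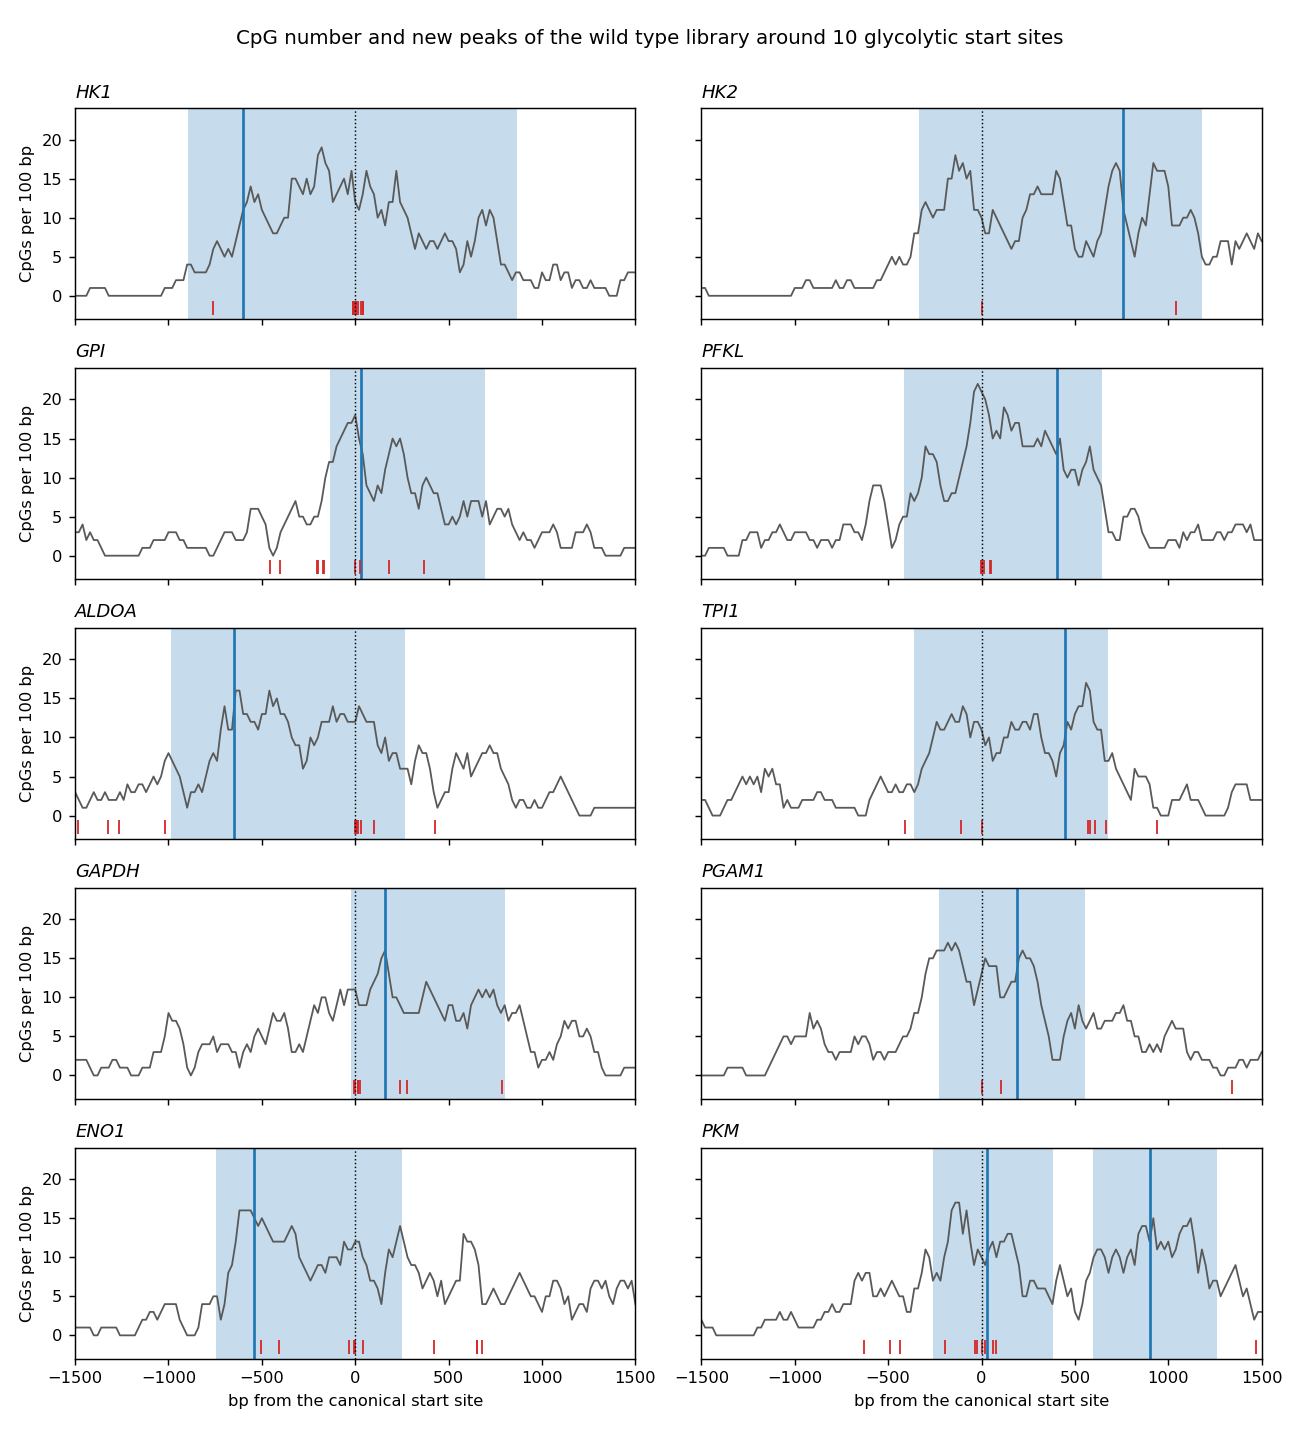
CpGs per 100 bp (grey line, windows of 100 bp) against the distance from the canonical start site (dotted line) of each gene, in the direction of transcription. Blue areas are new peaks of the wild type library, blue lines their summits and red marks annotated start sites. The GPI peak with its summit 5736 bp upstream is outside the range shown. All 10 start sites lie inside a blue area, and the GAPDH peak begins only 24 bp upstream of its start site.

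Hexokinases phosphorylate glucose and thereby hold it in the cell. The HK1 peak ran from 71077706 to 71079467 on chromosome 10, was 1762 bp wide and held 168 CpGs. Its fold enrichment in the deposited list was 14.2, higher than that of 93.3% of all new peaks and the highest of the 12. The summit lay 599 bp upstream of the canonical start site, and the peak covered the whole CGI of 157 CpGs. HK2 had a peak at chromosome 2, 75060918 to 75062432, also with 168 CpGs, over 1515 bp. Its fold was 13.6, and its summit was found 756 bp downstream of the start site in intron 1. These were the widest of the 12, wider than 98.5% and 97.0% of the list.

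GPI converts glucose 6-phosphate to fructose 6-phosphate. Its main peak at chromosome 19, 34855964 to 34856794, had a fold of 8.22 and 82 CpGs, and its summit lay 33 bp downstream of the canonical start site in exon 1. A second peak from 34850160 to 34850456 covered the first annotated start of the gene, 5507 bp before the main peak. This was the narrowest of the 12, with 297 bp and 36 CpGs, and had a fold of 8.07. With 12 fragments at its summit it also had the lowest number of the group. PFKL, the liver type subunit of the phosphofructokinase that commits the sugar to glycolysis, had a peak at chromosome 21, 45719523 to 45720582. It held 140 CpGs in 1060 bp, which is the highest density of the 12 with 13.21 per 100 bp, at a fold of 8.77. Its summit lay in intron 1, 405 bp downstream of the start site.

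ALDOA, the aldolase that cleaves fructose 1,6-bisphosphate, carried a peak at chromosome 16, 30076095 to 30077348. Its summit had 32 fragments, the most of the 12, and the highest −log10 q with 25.5. The fold was 12.2, and the summit lay 650 bp upstream of the canonical start site. TPI1 interconverts the 3-carbon products of aldolase. The TPI1 peak at chromosome 12, 6976333 to 6977370, had 111 CpGs, a fold of 7.49 and a summit 449 bp downstream of the start site in intron 1.

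GAPDH oxidizes glyceraldehyde 3-phosphate and is widely used as a reference gene. Its peak at chromosome 12 ran from 6643659 to 6644485 with 81 CpGs in 827 bp and a summit in intron 1, 158 bp from the start site. The peak extended 802 bp downstream of the start site but only 24 bp upstream of it. The peaks at the start site of the other 9 genes reached between 137 bp (GPI) and 986 bp (ALDOA) upstream. No error was estimated for peak edges, and both 24 bp and 137 bp are shorter than the fragment length of 253 bp. Whether GAPDH differs in this respect was not tested, and the upstream reach of all other peaks at start sites was not computed. Among the 12 peaks the GAPDH fold of 9.06 ranked in the middle, above 66.6% of the list.

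PGAM1 and ENO1 carry out consecutive steps, the shift of the phosphate group of phosphoglycerate and the removal of water. The PGAM1 peak at chromosome 10, 99185719 to 99186501, had its summit 190 bp downstream of the start site in coding exon 1. It was the sole peak with a fold below the median of the list, at 7.42. A start site of RRP12, a neighbouring coding gene, lay in the same peak. The ENO1 peak at chromosome 1, 8938493 to 8939493, had a fold of 12.6 and 107 CpGs. Its summit was 542 bp upstream of the canonical start site but 38 bp from another annotated start of ENO1.

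PKM forms pyruvate and ATP in the last step. Its CGI of 2107 bp held 2 new peaks that were separated by 213 bp with 12 CpGs. The peak over the start site at chromosome 15, 72523150 to 72523790, had a fold of 9.98, 62 CpGs and a summit 32 bp downstream of the start site. The other, from 72522270 to 72522936, had its summit 900 bp downstream in intron 1, with a fold of 10.97 and 75 CpGs. No annotated start site of PKM lies inside this second peak.

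The 12 peaks had a median fold of 9.52 with a range from 7.42 to 14.2. Over all new peaks the median was 7.45, and over the 8608 new peaks within 1000 bp of canonical start sites of coding genes it was 8.07. A fold of 10 or more was reached by 5 of the 12 peaks, and 11 were at or above the median of the list. The peaks of the 10 genes were also wide, with a median of 916 bp against 498 bp in the list and 572 bp at coding start sites. At least 1000 bp was reached by 6 of the 12, namely HK1, HK2, PFKL, ALDOA, TPI1 and ENO1. The same width was reached by 13.6% of all new peaks and 17.2% of those at coding start sites.

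The wide peaks held more CpGs, with a median of 97 per peak against 51 in the list, while the density was similar, with medians of 10.7 and 10 CpGs per 100 bp. At coding start sites the medians were 60 CpGs and 10.6 per 100 bp. The summits of the 12 peaks were found at a median of 495.5 bp from the canonical start site, 8 downstream and 4 upstream. For the strongest peak of all 8364 coding genes with a peak near the start site, this distance was 279 bp. The 500 bp around the summit held between 39 (HK1) and 66 (PFKL) CpGs. In HK1 another 500 bp of the same peak held 75 CpGs, so that the summit did not coincide with the CpG-richest part.

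**Figure D2:**
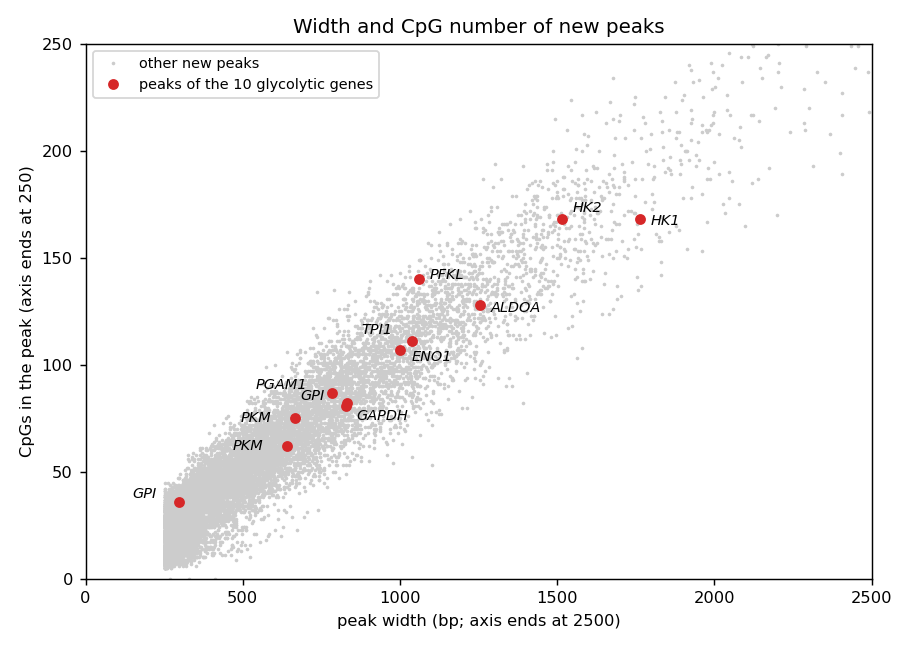
CpG number of each new peak (vertical axis) against its width in bp (horizontal axis). Grey points are the other new peaks on the main chromosomes, and red points are the 12 peaks of the glycolytic genes. HK1 and HK2 stand at the upper right with 168 CpGs each, and the upstream GPI peak at the lower left with 36.

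How far these values can be ranked depends on the number of fragments. Fold and p-value of a peak can be solved for how many fragments overlapped its summit and for the background rate, if the formulas of MACS2 apply, a tool named in the processing notes of the submitters. Every value of −log10 p in the list was matched within 0.000403 in this way. The 12 summits had 12 to 32 fragments with a median of 22.5, against a median of 18 in the list. The exact 95% Poisson interval ran from 6.20 to 21.0 fragments for the upstream GPI peak and from 21.9 to 45.2 for ALDOA. This was the sole pair of 66 whose intervals did not overlap. When the same intervals were carried over to the fold with the background held fixed, no pair was apart. HK1, for example, ranged from 9.20 to 21.0 and PGAM1 from 4.98 to 10.7. Therefore, the order of the 10 genes by fold is not resolved at this depth. The intervals cover the counting error of the wild type fragments only, and not that of the untreated reads behind the background. Overlapping intervals also do not show that folds are equal.

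The background rate stands for the untreated library, scaled to the size of the wild type library. Each read of that library then counts 0.694, and the caller takes the highest of the rates over 253 bp, 1000 bp, 10000 bp and the genome. For the 12 peaks the rate lay between 0.611 and 2.78 fragments. HK1 and HK2 corresponded to 1 untreated read over the fragment length of 253 bp. The highest rate was that of PGAM1 with 4 such reads, and its 27 fragments, the second highest number of the 12, gave the lowest fold. At the upstream GPI peak the genome-wide rate was used. For the main GPI peak, PFKL and ENO1 the rate came from 47 untreated reads in 10000 bp, for GAPDH from 94, for ALDOA from 97 and for TPI1 from 118. In 7 of the 12 peaks these rates allow at most 1 untreated read at the summit.

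**Figure D3:**
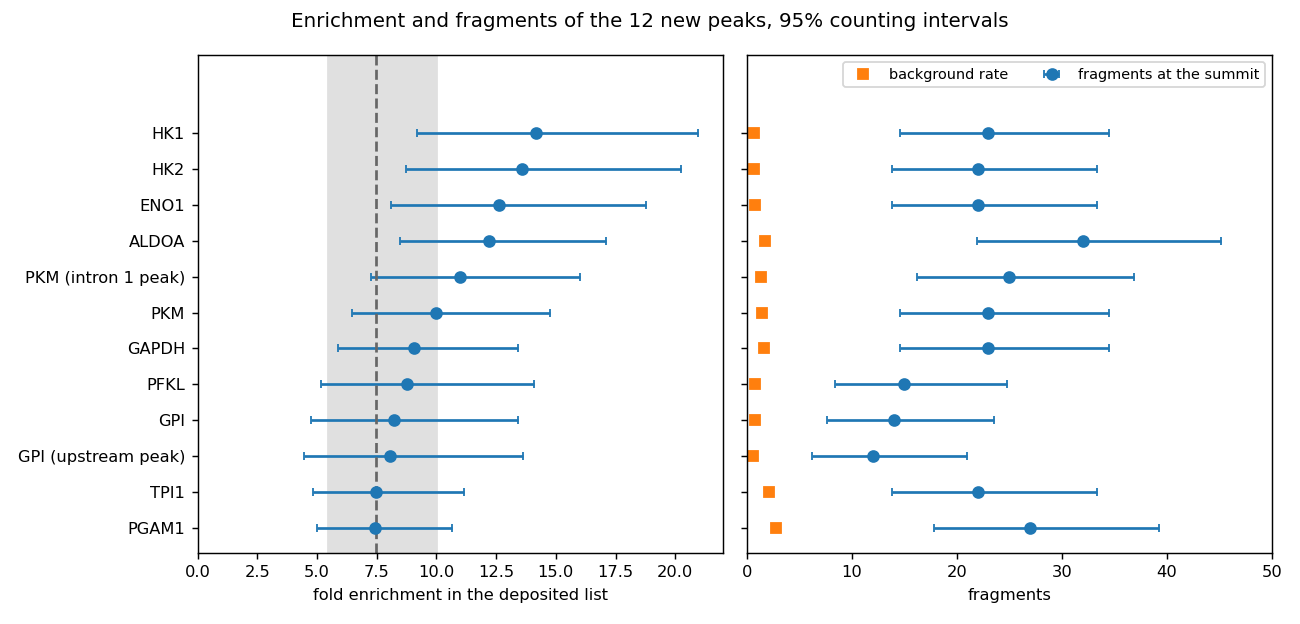
Left, fold enrichment in the deposited list for the 12 peaks, with the quartiles (grey area) and median (dashed line) of all new peaks. Right, fragments at the summit (circles) and background rate (squares), both in fragments. Bars are 95% Poisson intervals of the fragment number, in the left panel with the background held fixed. All intervals overlap on the left, and all background rates are below 3 fragments.

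The CGIs at the 10 start sites held 1466 CpGs in total, of which 1185, or 80.8%, lay in new peaks. This share was 100% in HK1, 97.3% in TPI1 and 92.1% in PFKL. The lowest values were found for GAPDH with 65.9%, ENO1 with 66.5% and PGAM1 with 67.4%. The uncovered part lay on different sides of the genes. In GAPDH, 397 bp with 32 CpGs were left at the upstream end of the CGI and 122 bp with 10 CpGs at the downstream end. ENO1 and ALDOA showed the opposite arrangement, with 703 bp and 524 bp uncovered at the downstream end and none upstream. All these lengths depend on the called edges of the peaks, for which no error was estimated. Further CGIs in the gene bodies had no new peak, with 2 in HK1 of up to 18 CpGs and 4 in PFKL of up to 37 CpGs. A CGI that was already methylated in untreated cells would not be listed either, so that the absence of a new peak is no measurement of its methylation.

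Several of these genes have alternative start sites. The annotation gives 136 different start sites for the 10 genes, of which 62 lay inside a new peak, 27 within 1000 bp of a peak and 47 farther away. Those inside a peak had a median of 56 CpGs in the surrounding 500 bp, with a lowest value of 30. The 47 distant ones had a median of 8 and a highest value of 29, so that these 2 ranges did not overlap. The 27 start sites within 1000 bp of a peak, however, ranged from 10 (PGAM1) to 47 (GPI) and overlapped with both. Many start sites in a peak also lie a few bp apart in the same CGI and are not separate observations. Of the distant start sites, 31 belong only to transcripts with a retained intron or without a defined coding sequence. HK1 had the most with 14 of 25, including 10 upstream of the canonical start site. The farthest of these, at position -48863 bp relative to it, had 4 CpGs in 500 bp, against 69 at the canonical start site. In PKM, 11 of 22 start sites were beyond reach of a peak.

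The hypoxia response element, the DNA motif bound by HIF1, has a CpG in its core. Therefore, the letters ACGTG and GCGTG were searched on both strands in the 250 bp before to 50 bp after the canonical start sites. ACGTG occurred in HK2, ALDOA, GAPDH and PGAM1, or 4 of 10, and in 23.3% of all coding promoters. GCGTG occurred in 8 of 10, all but ALDOA and TPI1. It was present in 45.0% of all coding promoters and in 55.3% of those with a new peak within 1000 bp. Of the 5 matches to ACGTG, 4 lay inside a new peak, and of the 10 to GCGTG, 8 did. All 3 matches outside a peak were those of GAPDH, which depends on where the upstream edge of its peak was called. The stretch upstream of HK2 is shown as an example of matches inside a peak, with the matching letters in capitals.
HK2, 250 to 1 bp upstream of the start site, chr2:75061004-75061253 (plus strand): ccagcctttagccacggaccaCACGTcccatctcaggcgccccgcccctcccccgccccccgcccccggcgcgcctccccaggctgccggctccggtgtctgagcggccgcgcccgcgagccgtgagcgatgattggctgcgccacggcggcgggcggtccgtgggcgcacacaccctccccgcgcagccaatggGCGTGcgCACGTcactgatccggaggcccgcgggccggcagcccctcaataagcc
These 250 bp with 34 CpGs were entirely inside the new peak of HK2. The E-box CACGTG, whose matches would also contain ACGTG, was in none of the 10 promoters and in 8.76% of all. GGGCGG, the core motif of the SP1 family, was present in 9 of 10, with GAPDH as the exception, and in 61.4% of all coding promoters or 82.9% of those with a new peak. PGAM1 had 11 matches to it and PFKL 7. A match of letters does not show that a factor binds.

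Next, 48 other genes of glucose metabolism were examined with the same rule, and 26 of them, or 54.2%, had a new peak, against 48.5% of all coding genes. With a CGI within 1000 bp of the start site, 23 of 31 had a peak, compared with 62.6% of all coding genes of this kind. Without a CGI, 3 of 17 had a peak, compared with 11.8%. The median fold of the strongest peak per gene was 8.03.

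Among the 15 other isozymes of the listed steps, 7 had a new peak and 8 did not. No peak was listed for the hexokinases HK3 and HKDC1 or for PFKM, the muscle type of phosphofructokinase. The same was true for GAPDHS, the form of GAPDH in sperm, for PGAM2 and PGAM4 and for PKLR, the pyruvate kinase of liver and red blood cells. The start sites of the isozymes without a peak had 5 to 34 CpGs in 500 bp, compared with 48 to 73 in the 10 genes. ADPGK, an ADP-dependent glucokinase, had a fold of 12.9 and ENO2, the neuronal enolase, a fold of 2.73 in a peak of 1106 bp with 32 fragments. PFKP, the platelet type of phosphofructokinase, had 2 peaks with a highest fold of 3.69 and a CGI of 311 CpGs. The peak with this fold had 22 fragments at its summit. ALDOC had a peak without a CGI, 82 bp from its start site with a fold of 7.99. SLC2A3, a transporter that also lacks a CGI, had its strongest peak 34600 bp away, with a fold of 4.99.

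**Figure D4:**
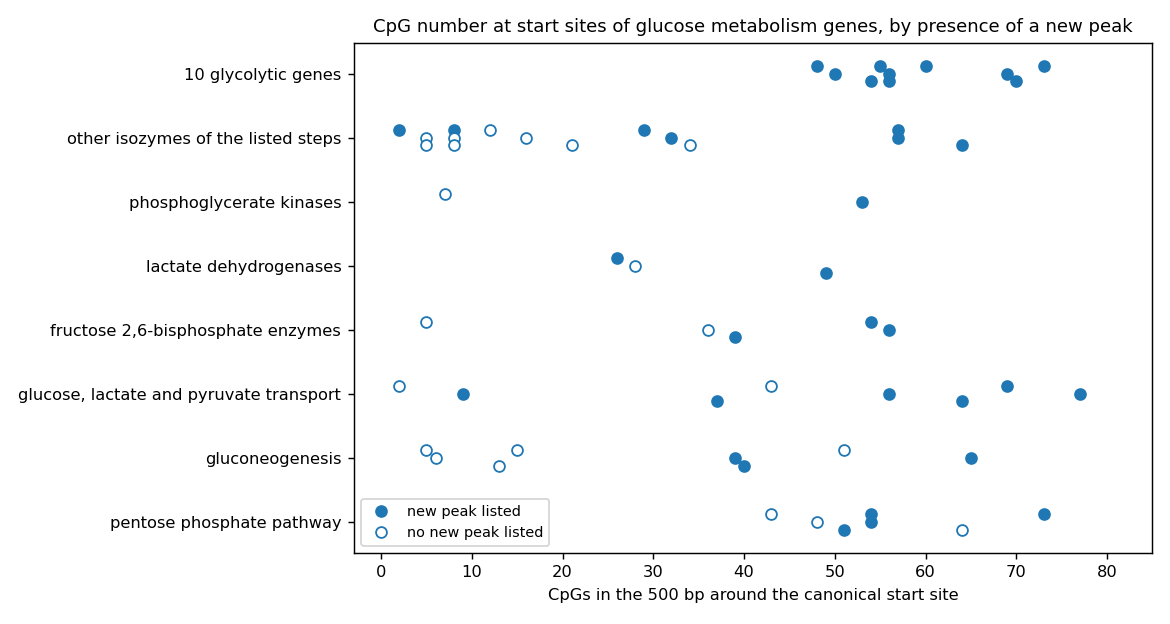
CpGs in the 500 bp around the canonical start site (horizontal axis) of the 10 glycolytic genes and 48 other genes of glucose metabolism, in rows by list. Filled circles have a new peak by the rule used here and open circles do not. The 10 genes lie between 48 and 73 CpGs, and the open circles among the other isozymes do not exceed 34.

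Phosphoglycerate kinase, the step between GAPDH and PGAM1, was represented by PGK1 with a fold of 4.10 in a peak of 349 bp. Unlike in the 10 genes, the canonical start site of PGK1 lay outside its peak. The testis form PGK2 had no peak. The highest folds outside the 10 genes were those of PGD with 21.7, an enzyme of the pentose phosphate pathway, and PFKFB3 with 16.8, which makes the activator of phosphofructokinase. LDHA, which turns pyruvate into lactate, followed with 13.4 and SLC2A1, the widespread glucose transporter GLUT1, with 13.0. The PGD peak exceeded all 12 peaks of the glycolytic genes in fold and in fragments, of which it had 34, and held 141 CpGs in 1423 bp. Low folds were found for SLC16A3, a lactate exporter, with 3.46 at a peak 7771 bp from the canonical start site. PC, pyruvate carboxylase, had 3.89 at a peak 75613 bp from its own. The summits had 31 fragments in SLC16A3, 22 in PC and 23 in PGK1, against a median of 22.5 in the 12 peaks. A low fold in these genes therefore does not mean few fragments.

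In total 22 of the 48 genes had no new peak. Of these, 14 had no CGI and 2 to 28 CpGs in 500 bp. Besides isozymes, they included PFKFB1, FBP2, G6PC1, G6PC2, PCK1, SLC2A2, LDHC and PGK2, several of which work in the glucose production of the liver. The other 8 had a CGI and still no new peak. Among them, the CGI of the insulin-dependent transporter SLC2A4 held 126 CpGs. FBP1 had 77 CpGs, RPIA 65, GAPDHS 64, PFKFB4 62, RPE 52 and PGAM2 27. By list, 4 of 7 pentose phosphate genes, 3 of 8 gluconeogenesis genes, 6 of 8 transporters, 2 of 3 lactate dehydrogenases and 3 of 5 fructose 2,6-bisphosphate enzymes had a new peak.

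Many of the glycolytic genes have processed copies, pseudogenes without introns or promoter that arose from their mRNA. Taken by symbol, the annotation holds 94 such copies, 65 of them of GAPDH and 13 of PGAM1. None of the 94 had a new peak by the same rule. Of all 15399 annotated pseudogenes, a set not limited to processed copies, 2.49% did. At such a low share, few or no peaks would be found among 94 copies either.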

How the data were processed

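HEK293 DNA was enriched with MBD2 and sequenced in 4 libraries, 1 per condition. The authors used Bowtie2 for mapping to hg19, and the processing notes of the submitters also name FastQC, deepTools and MACS2. The caller's settings are not given in the sources used here. The deposited list gives a fold (a ratio to the local background), a −log10 p-value, a −log10 q-value (at least 2.00), the summit, and a score that was not used. A region is listed only where it passed this threshold against untreated cells.

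No peak ended beyond a GRCh37 chromosome. Canonical start sites came from GENCODE release 44, and 19881 coding genes had one. CGIs were built from unmasked sequence (17 per CpG, -1 per other base, over 200 bp, at least 50% GC, observed/expected ratio over 0.6). Overlap of 1 bp counted. No total read number is in the file, so depth is known only through the fragments at summits. No test was made, since each condition has a single library. Genes named are the 10 members, other pathway genes without a peak or with the 5 highest or lowest folds, and others chosen after their values were seen (ALDOC, SLC2A3). Some pathway genes that the rule names are not reported here. The members, lists and alternatives were chosen with earlier results of these data known. Steps were tested on simulated data. Work was done in Python 3.11.15 with scipy 1.17.1, pysam 0.24.0, numba 0.67.0, pandas 2.3.3, numpy 2.4.6 and matplotlib 3.10.9, and samtools 1.23.1 indexed the genome.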

Additional observations from a re-analysis of the deposited data

How the results depend on the processing

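Of 30 alternatives computed, 25 stayed within 1.5 times of the value reported. All 10 genes had a new peak within 500 bp or 2000 bp of a start site, with the canonical start site alone, with the summit required in the window and with a −log10 q of at least 10. The changes of distance and the canonical start site alone could not alter this count, because every canonical start site lay inside a peak. They are therefore no check of it, although they are among the 25. With peaks of at least the median fold 9 of 10 remained, since PGAM1 lies below it. That threshold and the −log10 q of at least 10 shorten the list by construction, and the other pathway genes with a peak fell to 15 and 16 and all coding genes to 5885 and 5746. The median CpG number of the 12 peaks became 55 when the 500 bp around the summit were counted. No paired analysis was possible because each condition has a single library. With 12 to 32 fragments at a summit, differences in fold between these genes are not resolved, and K844E, R887E and untreated levels were not analysed here.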

Other observations

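Start sites of other genes lay in or near the new peaks of 6 of the 10 genes. The PGAM1 peak contained a start site of RRP12, a coding gene for a ribosome biogenesis protein, 305 bp from the summit. Non-coding transcripts began inside the peaks of HK2 (HK2-DT, 896 bp from the summit), ENO1 (ENO1-AS1, 393 bp), GPI and ALDOA, and GAPDH-DT began 995 bp outside that of GAPDH. A peak at such a promoter cannot be assigned to a single gene.

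The distances between the peaks of these genes and other new peaks are given without the spacing of the whole list, which was not computed. Apart from the pairs in GPI and PKM, the nearest other new peak was 11556 bp away for ALDOA, 19930 bp for GAPDH and 22776 bp for TPI1. For PFKL the next new peak on the downstream side was 500937 bp away, the largest distance of the 10 genes, and that on the upstream side 57075 bp.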
